A study of Homo sapiens with 2 samples.

Results

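Replication-dependent histone genes were examined in NUDT21 CUT&Tag peak lists of T-cell acute lymphoblastic leukemia (T-ALL) cells. They were taken as the protein-coding genes of GENCODE release 44 named H1-1 to H1-6, or H2AC, H2BC, H3C or H4C followed by a number. This gave 69 of 20033 protein-coding genes, with 6 for the linker histone H1 and 17, 18, 13 and 15 for the core histones H2A, H2B, H3 and H4. Chromosome 6 held 55 of them, chromosome 1 held 13, and H4C16 lay on chromosome 12. Peaks were assigned to a gene when their nearest edge lay within 3 kb of any of its transcript starts or when they overlapped the gene. This region is called the window, and a peak over the canonical transcript itself is called a gene peak.

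The cells were J.gamma1, an established human T-ALL line, and both samples were labelled as replicates of 1 group that received the same NUDT21 antibody. There was no control group, no treatment and no other cell line, so the results describe NUDT21 signal in 1 line. CUT&Tag tethers a transposase to chromatin through the antibody, so that DNA near the bound protein is cut and sequenced. NUDT21 is the small subunit of cleavage factor Im, which binds UGUA in pre-mRNA and influences which polyadenylation site is used.

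Replication-dependent histone genes supply the histones that package new DNA and are transcribed mainly in S phase. They are short, mostly without introns, and are clustered so that many H2A and H2B genes start close together and run in opposite directions. Their mRNAs are typically not polyadenylated. A stem-loop near the 3′ end is bound by SLBP, and the U7 snRNP directs cleavage just after it. Their RNA ends are thus mostly made by another route than polyadenylation.

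The stem-loop was located in hg38 after the stop codon of 66 genes, 95.7% of the 69, and the same search matched 0.758% of 19919 protein-coding genes. H3C6, H2BC10 and H4C13 had no match. The search asked for a 6-base arm that starts with GG, a 4-base loop that starts with TT and a complementary arm with at most 1 unpaired position, on the sense strand within 200 bases of the stop codon. The core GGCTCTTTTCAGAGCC was found in 40 genes, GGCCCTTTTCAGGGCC in 10, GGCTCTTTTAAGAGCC in 9 and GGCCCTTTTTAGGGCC in 4. The following genes show these forms, with the stem-loop in capitals and each sequence read 5′ to 3′ on the strand of the gene. H2BC4, H4C11 and H4C14 had strong peaks, H1-4 had its summit beyond its 3′ end, and H2AC8 had no peak.
H2BC4 (chr6:26123467-26123492, minus strand): ccaaaGGCTCTTTTAAGAGCCaccca
H4C11 (chr6:27824454-27824479, plus strand): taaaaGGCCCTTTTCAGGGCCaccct
H4C14 (chr1:149833027-149833052, plus strand): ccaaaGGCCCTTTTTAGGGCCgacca
H1-4 (chr6:26157090-26157115, plus strand): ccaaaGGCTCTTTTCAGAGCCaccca
H2AC8 (chr6:26217412-26217437, plus strand): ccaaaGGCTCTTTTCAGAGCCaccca
The printed sequences of H1-4 and H2AC8 are the same, and both genes are among the 40 with this core. H1-4 had a peak in both replicates and H2AC8 in neither. They are single examples, and whether the stem-loop sequence bears on a peak was not tested.

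Promoters, taken from 250 bases before to 50 after the canonical start, were searched on both strands. TATAAA was present in 66.7% of the histone promoters and 9.71% of all promoters, and CCAAT in 85.5% and 36.1%. The octamer ATTTGCAT, the site of the POU factor encoded by POU2F1, was present in 12 of 17 H2A and 14 of 18 H2B promoters and in none of the H1, H3 or H4 promoters. Over all protein-coding promoters its share was 1.62%. In a divergent pair the same octamer can lie in both promoters as taken here, and whether it acts on both was not tested. The H2BC4 and H2AC6 sequences show such a case, with the octamer or its complement in capitals.
H2BC4 (chr6:26124032-26124059, minus strand): ttcatacctcATTTGCATagctctgccc
H2AC6 (chr6:26124032-26124059, plus strand): gggcagagctATGCAAATgaggtatgaa
H2BC8 (chr6:26216719-26216746, minus strand): tgaattctttATTTGCATgaaaggccta
H2BC8 is shown because it carries the octamer and had no peak. Of the 26 promoters with an octamer, 21 belonged to genes with a window peak in both replicates, and of the 43 without it, 38 did. The motif AATAAA, the usual polyadenylation signal, was found within 200 bases after the stop codon in 10.1% of the histone genes and 18.7% of protein-coding genes. TGTA, the DNA form of the NUDT21 site, was found within 100 bases of the gene end in 63.8% and 67.7%. The AATAAA search did not reach gene ends more than 200 bases after the stop codon. Its shares are therefore not shares of gene ends with the signal.

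On chromosomes 1 to 22, X and Y the lists held 92722 and 66671 peaks in replicates 1 and 2, with a median fold enrichment of 3.95 and 4.23. Fold is the signal at the peak summit over the local background. Total depth is unknown, but the number of fragments at a summit and the background level were recovered from the deposited fold and p. The median summit had 30 fragments in replicate 1 and 20 in replicate 2, so replicate 2 was the shallower list. As a check of the labelled cell type, 8 of 10 T-cell marker genes had a window peak in both replicates. So did 6 of 10 marker genes of other cells and 61.9% of all protein-coding genes, so window peaks alone separated these lists little. A peak covered the start in both replicates at 7 of the 10 T-cell markers and 3 of the 10 others. Over all protein-coding genes this share was 33.9% by canonical start. The differences were not tested.

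Most replication-dependent histone genes carried NUDT21 signal. A window peak was present in both replicates at 59 of 69 genes, or 85.5% (95% Wilson interval 75.3 to 91.9), against 61.9% of all protein-coding genes. The counts were 60 in replicate 1 and 59 in replicate 2, where 73.6% and 62.9% of all protein-coding genes had a peak. The 811 other protein-coding genes of at most 1500 bp were used as a background of short genes, and 27.5% of them had a window peak in both. Their lengths were not matched, with a median canonical transcript of 970 bp against 487 bp for the histone genes. Neighbouring histone genes share peaks, so they are not independent, and the intervals cover counting error only.

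A gene peak was present in both replicates at 55 of 69 genes, or 79.7% (68.8 to 87.5), against 57.6% of all protein-coding genes and 21.7% of the other short genes. A peak covered the canonical start in both replicates at 52 genes, or 75.4%, against 33.9% of all protein-coding genes and 16% of the other short genes. It covered the canonical end in both at 43 genes, or 62.3%, against 11% of the other short genes.

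The signal was also strong relative to the rest of each list. The strongest window peak per histone gene had a median fold of 18.4 in replicate 1 and 15.7 in replicate 2, compared with 5.78 and 5.58 over all protein-coding genes with a peak. As a percentile of the list by fold, the median was 99.7 ± 0.0429 (SD, n = 2) for the histone genes. It was 83.9 and 79.4 for all protein-coding genes, and 84.1 and 81.0 for the other short genes. The strongest window peak lay at or above the 99th percentile in both replicates for 37 of 69 histone genes, 53.6%, against 3.21% of all protein-coding genes and 1.73% of the other short genes. The window value can be that of a neighbour's peak, and 1 peak can count for up to 3 genes. By gene peak the count was 34, and the median fold was 15.6 and 14.5, against 5.68 and 5.47 over all protein-coding genes. With each window peak counted once, the median fold was 10.5 and 10.8, at percentiles of 97.9 and 98.7.

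**Figure D1:**
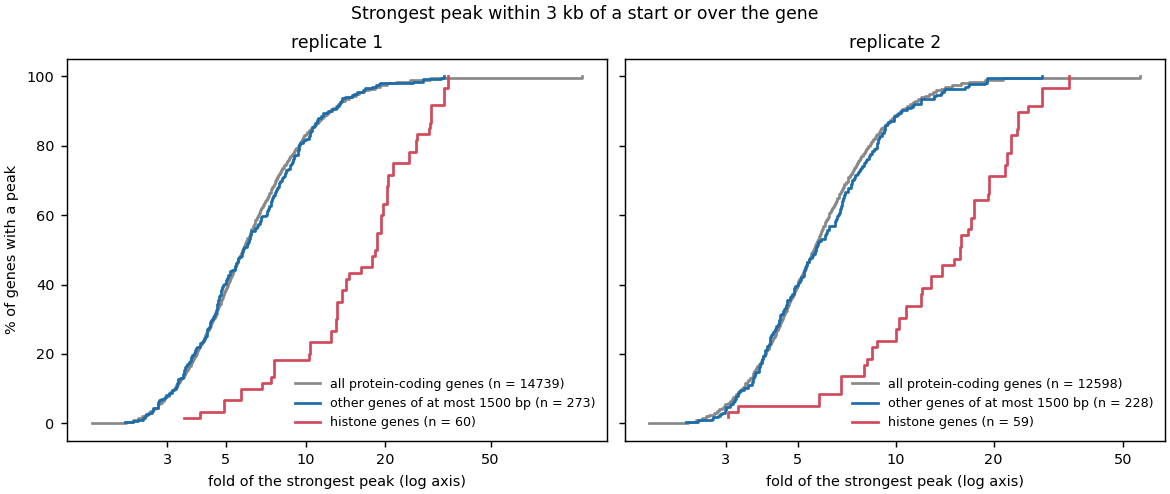
The share of genes with a peak (vertical axis, %) whose strongest window peak has a fold at or below the value on the horizontal log axis is drawn for each replicate. The histone curve (60 and 59 genes) lies to the right of the curves for all protein-coding genes and for other genes of at most 1500 bp, with medians of 18.4 and 15.7 against 5.78 and 5.58 for all protein-coding genes.

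Both parts of the fold differed from those of other genes. The strongest histone peaks had a median of 78 fragments in replicate 1 and 49 in replicate 2, against 49 and 27 over all protein-coding genes. By fragments the median percentile was 95.7 and 97, against 85.1 and 77.4. The median background level was lower, at 2.58 and 2.34 against 6.72 and 3.90. Of the peaks in histone windows, 37.1% and 36.7% had the lowest background level of their list, which 4.94% and 3.26% of all peaks had. The part of this low background in the fold was not tested. Among the 100 peaks of highest fold, 8 in replicate 1 and 12 in replicate 2 lay in histone windows, while 1 and 5 of the 100 peaks of lowest p did.

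The strongest histone peak covered the starts of H2BC4 and H2AC6, a divergent pair that encodes H2B and H2A on chromosome 6. Its fold was 34.6 with 168 fragments in replicate 1 and 34.1 with 113 fragments in replicate 2. It ranked 24 of 92722 and 5 of 66671 peaks by fold.

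On chromosome 1, the starts of H2BC21, H2AC20 and H2AC21 were covered by 1 peak. It did not reach the end of the canonical H2BC21 transcript, which is 2224 bp long. In both replicates it covered the H2BC21 stem-loop, 494 bp from the start. The fold of this peak was 33.3 in replicate 1 and 28.2 in replicate 2, at rank 26 and 8. No other peak touched 3 histone genes in either list. In replicate 1 it was 3102 bp long and in replicate 2 it was 2986 bp long.

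Among H3 genes, H3C15 shared a peak with H2AC19 at a fold of 29.8 and 23.7, and H3C4 had a gene peak at 20.4 and 15.5. H3C12 on chromosome 6 had nearly equal folds of 19.3 and 19.3 in the replicates. Among H4 genes, H4C11 had a fold of 29.4 and 25.5, and H4C12 had 29.1 and 23.6. Of their 32-base words, 92.5% and 93.0% also occur elsewhere in the genome, so reads of these genes may be shared with other copies. For H4C15 the strongest window peak was that of H2AC19 and H3C15, and the peak over H4C15 itself had a fold of 20.5 and 13.3.

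The H1 genes encode the linker histones and were the weakest class by gene peak in replicate 1. H1-5 had a gene peak with a fold of 17.8 and 15.7, and H1-2 of 18.3 and 15.1. For H1-4 the strongest window peak, at 20.5 and 15.9, lay over its neighbour H2BC5, and the gene peak of H1-4 had a fold of 6.92 and 7.998. H1-1 had a gene peak only in replicate 1, at a fold of 4.66 with 17 fragments. H1-6, which encodes the testis linker histone, had no gene peak.

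**Figure D2:**
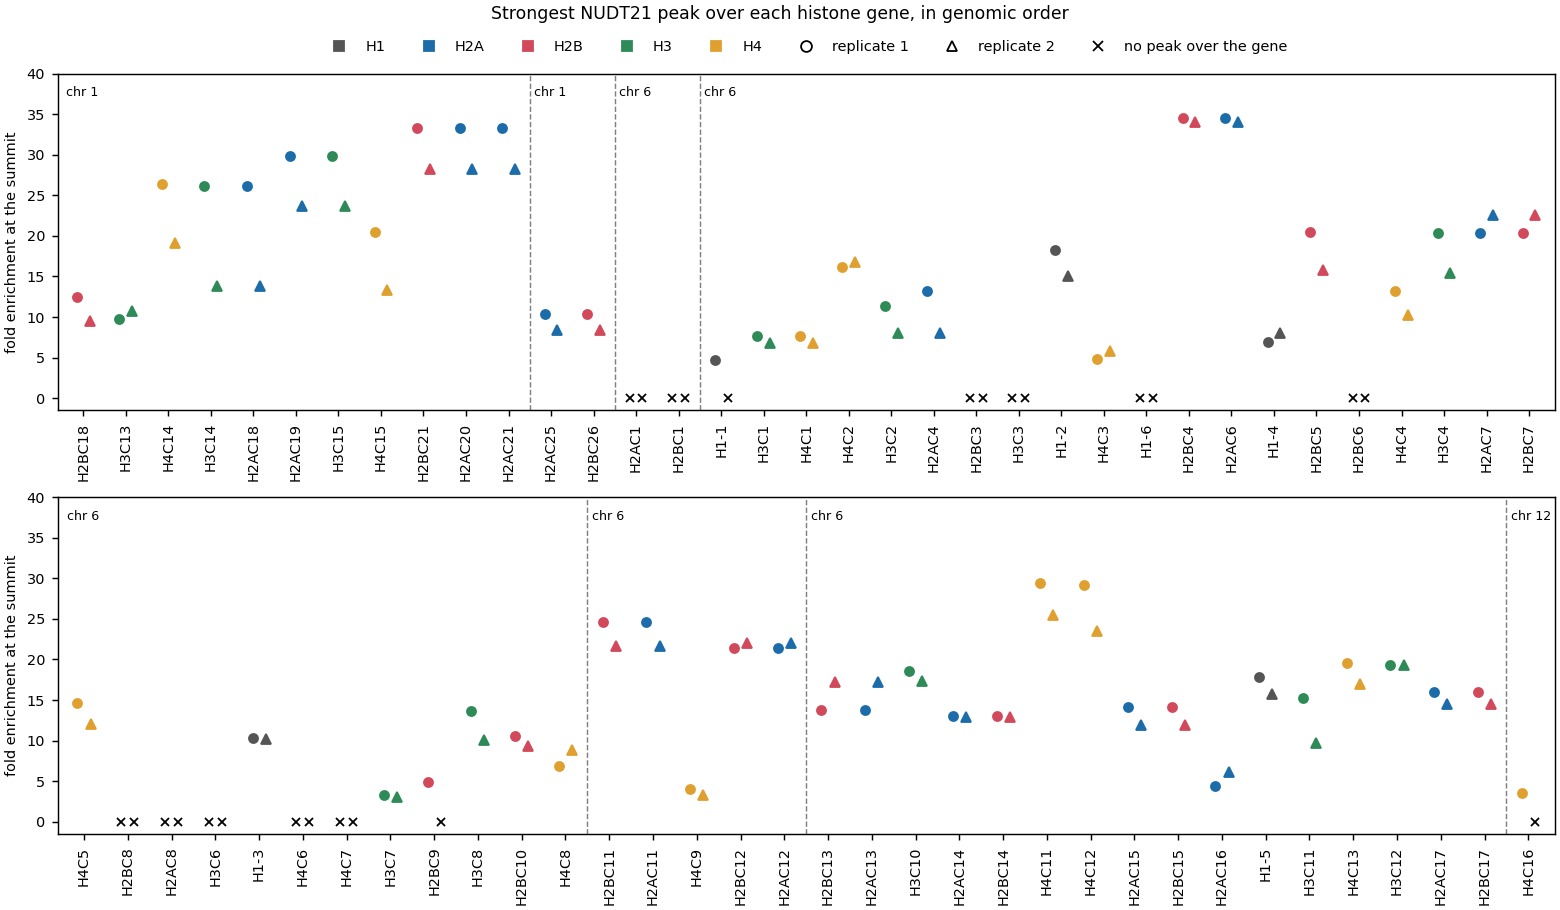
Fold enrichment of the strongest peak over each canonical transcript is plotted for all 69 genes in genomic order, coloured by histone class, with circles for replicate 1, triangles for replicate 2, crosses at 0 for no gene peak and dashed lines between clusters. Values reach 34.6 at H2BC4 and H2AC6, and genes without a gene peak lie next to genes with high values in the largest chromosome 6 cluster.

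By class, a window peak in both replicates was found for 6 of 6 H1, 15 of 17 H2A, 15 of 18 H2B, 11 of 13 H3 and 12 of 15 H4 genes. A gene peak in both was found for 4 of 6 H1, 15 of 17 H2A, 13 of 18 H2B, 11 of 13 H3 and 12 of 15 H4 genes. H1-6 in both replicates and H1-1 in replicate 2 had a window peak without a gene peak. The median fold of the gene peaks in replicate 1 and replicate 2 was 10.3 and 12.6 for H1, 20.3 and 17.2 for H2A, 15.1 and 15.9 for H2B, 15.2 and 10.8 for H3, and 14.6 and 12.7 for H4. H2A had the highest median in both, but the ranges of the classes overlapped and many H2A and H2B values come from the same peak.

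By position, genes more than 200 kb apart were put in separate clusters. All 11 genes of the larger chromosome 1 cluster, both H2AC25 and H2BC26 elsewhere on chromosome 1, all 5 genes from H2BC11 to H2AC12 and all 16 from H2BC13 to H2BC17 on chromosome 6 had a window peak in both replicates. The largest cluster, from H1-1 to H4C8 on chromosome 6, had such a peak at 25 of 32 genes. The median strongest fold was 29.8 and 23.7 in the larger chromosome 1 cluster and 13.2 and 10.05 in the largest chromosome 6 cluster. H2AC25 and H2BC26 shared a peak with a fold of 10.4 and 8.44.

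The remaining chromosome 1 genes, H2BC18 and H3C13, had gene peaks with folds of 12.5 and 9.51, and of 9.79 and 10.8. H4C14 had 26.4 and 19.2, and H3C14 and H2AC18 shared a peak at 26.2 and 13.9, the largest drop between replicates in this cluster. Of the 32-base words of H4C14, H3C14, H2AC18, H2AC19, H3C15 and H4C15, 100% also occur elsewhere in the genome. How the aligner placed such reads is not given in the sources used here, so signal at these copies cannot be told apart. In total 13 genes had more than 50% repeated words, the others being H2BC18, H3C13, H2BC12, H2AC13, H2AC14, H4C11 and H4C12, and all 13 had window peaks in both replicates. Of the other 56, 46 did.

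A total of 9 genes had no window peak in either replicate, namely H2AC1, H2BC1, H2BC3, H3C3, H2BC8, H2AC8, H3C6, H4C6 and H4C7. H2AC1 and H2BC1 are the testis pair and formed a cluster of their own. The other 7 lay in the largest chromosome 6 cluster. H2BC3 and H3C3 are neighbours. H2BC8, H2AC8 and H3C6 are neighbours as well, followed by H1-3 with a fold of 10.3 and 10.2 and then by H4C6 and H4C7. After these came H3C7, with a gene peak of 3.23 and 3.06, and H2BC9, with a gene peak of 4.92 in replicate 1 and none in replicate 2. H4C16 on chromosome 12 had a peak in replicate 1 only, with a fold of 3.48 and 48 fragments. The sequences of the 9 genes are mostly unique, with at most 8.11% repeated words. Of the 9, 8 have the stem-loop, 6 TATAAA, 8 CCAAT, 5 the octamer, 9 TGTA near the gene end and 0 AATAAA. Among the 59 genes with a window peak in both replicates, the counts in this order were 57, 39, 51, 21, 35 and 7. The differences were not tested. A missing peak means only that none was called.

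The weakest genes with a gene peak in both replicates were H3C7, H4C9 with a fold of 3.999 and 3.28, H2AC16 with 4.44 and 6.18, and H4C3 with 4.77 and 5.81. H2BC6, like H1-6, had a window peak and no gene peak. At the edge of the window, the farthest peak inside it in replicate 1 was 2905 bp from a start of H1-6 with a fold of 5.69, and the nearest outside was 3171 bp from H3C13 with a fold of 5.43. In replicate 2 the farthest inside was 2986 bp from H4C15 with a fold of 2.74, and the nearest outside was 4447 bp from H4C15 with a fold of 5.25.

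The replicates ranked the genes alike. Over the 59 genes with a window peak in both, the Spearman correlation of the strongest fold was 0.930, and over the 55 with a gene peak in both it was 0.913. These are correlations across genes, which share peaks and are not independent, and any control library used by the peak caller may also be shared. Of the histone-window peaks, 49 of 62 in replicate 1 (79.0%) overlapped a peak of replicate 2, against 56.4% of the whole list. In replicate 2, 48 of 49 (98.0%) overlapped a peak of replicate 1, against 85.7%. The summit of the strongest gene peak moved by a median of 30 bp between replicates, by at most 100 bp in 45 of 55 genes and by at most 200 bp in 50. It moved by more than 500 bp in 3 genes, up to 1530 bp in H2AC4. There replicate 1 had separate peaks over H2AC4 and its neighbour H3C2, and replicate 2 had a single peak over both with its summit in H3C2.

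Peaks were often shared between neighbours. In replicate 1, 36 of 62 window peaks (58.1%) and in replicate 2, 31 of 49 (63.3%) lay in the windows of at least 2 histone genes, with a maximum of 3 windows. Fewer touched several genes. In replicate 1, 31 peaks touched 1 histone gene, 12 touched 2 and 1 touched 3, and in replicate 2 the counts were 26, 13 and 1. The peaks that touched a histone gene had a median length of 1263 bp and 1315 bp, against 630 bp and 649 bp for the lists, while the canonical transcripts of the histone genes had a median length of 487 bp (386 to 2224 bp).

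Divergent pairs gave a regular picture. There were 12 pairs of an H2A and an H2B gene whose starts lay 194 to 251 bp apart. At 10 of them a single peak covered both starts in both replicates, and H2AC1 with H2BC1 and H2BC8 with H2AC8 had no peak. The peaks at the 10 pairs were 1218 to 3102 bp long, with folds of 10.4 to 34.6 in replicate 1 and 8.44 to 34.1 in replicate 2. The summit lay between the starts in 0 of 10 pairs in each replicate. The 194 to 251 bp between the starts are a small part of such peaks, so a low count there says little. It lay inside the H2B gene in 5 pairs and inside the H2A gene in 5, and the gene was the same in both replicates at 10 of 10 pairs. The distance of the summit from the midpoint between the starts was 212 to 416 bp. H3C7 and H2BC9, a further divergent pair with starts 979 bp apart, were not joined by a peak.

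**Figure D3:**
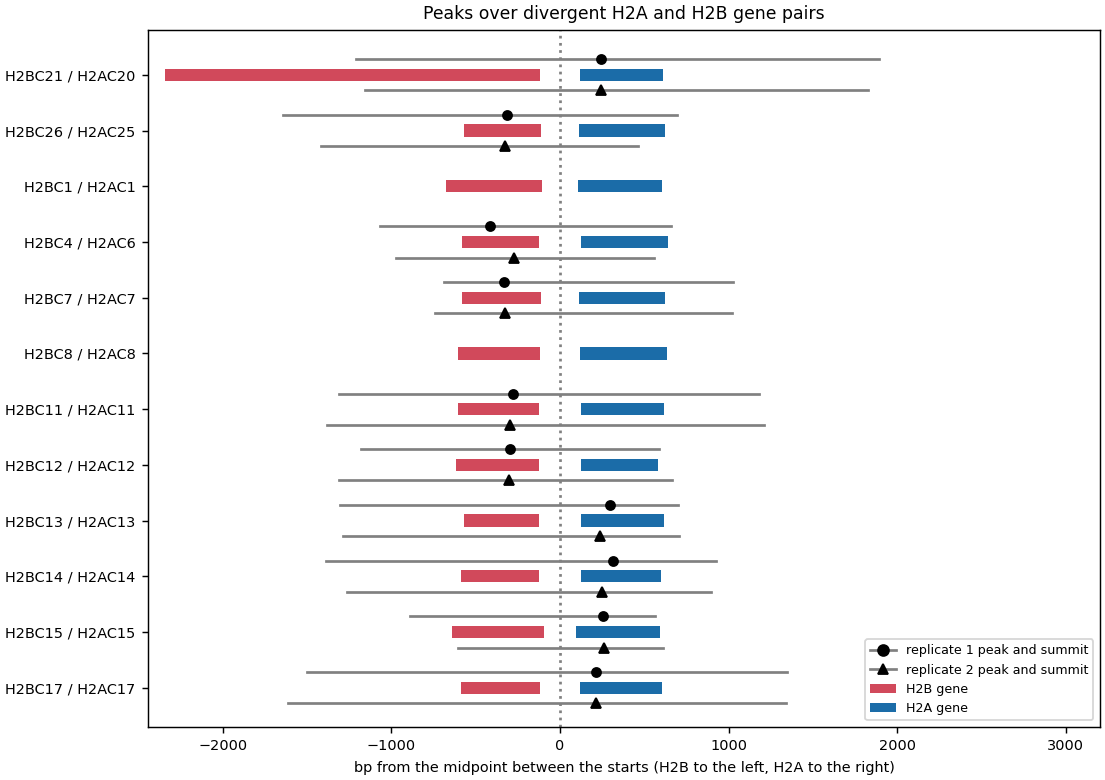
Each row is a divergent H2B and H2A pair, with the H2B gene in red to the left and the H2A gene in blue to the right of the midpoint between the starts (horizontal axis, bp), grey lines for the peaks and black symbols for the summits, replicate 1 above and replicate 2 below. The summits lie 212 to 416 bp from the midpoint, inside the same gene in both replicates at 10 of 10 pairs with a peak, and 2 pairs have none.

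In the 5 H2B cases, the pairs of H2BC26, H2BC4, H2BC7, H2BC11 and H2BC12, the summit stood 147 to 293 bp into the H2B gene. In the 5 H2A cases, the pairs of H2AC20, H2AC13, H2AC14, H2AC15 and H2AC17, it stood 92 to 189 bp into the H2A gene. At H2BC4 the summit was at 293 bp in replicate 1 and 147 bp in replicate 2, the largest shift among the 10 pairs, and at H2AC17 it was at 93 and 92 bp.

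Summits mostly lay within gene bodies. Of the peaks that touched a histone gene, 40 of 44 in replicate 1 (90.9%, 78.8 to 96.4) and 34 of 40 in replicate 2 (85.0%, 70.9 to 92.9) had the summit inside a canonical histone transcript. For peaks that touched other short genes the share was 47.0% (40.7 to 53.4) and 49.5% (42.5 to 56.5). The peaks had 45.8% and 44.8% of their bases inside histone genes, against 24.2% and 29.9% for the other short genes, so the larger share of bases accompanied the larger share of summits.

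Restricting to peaks that touched a single histone gene removed the ambiguity of the pairs. Here 29 of 31 summits in replicate 1 and 22 of 26 in replicate 2 lay inside the gene, with 0 upstream in each, 2 and 4 past the end, 22 and 17 in the 5′ part and 7 and 5 in the 3′ part, where each gene is divided at its middle. The median summit was 166 bp after the start (interquartile range 126 to 207) in replicate 1 and 190 bp (157 to 255) in replicate 2. For the other short genes 78 of 228 and 58 of 189 such summits were upstream of the start.

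Against the nearer gene boundary, 36 of 62 summits of window peaks in replicate 1 (58.1%) and 32 of 49 in replicate 2 (65.3%) were nearer to a start than to an end, a mean of 61.7% ± 5.12 (SD, n = 2). The other short genes had 62.2% and 61.3%. The windows themselves differ, since 35.7% of the bases of histone windows and 60.5% of those of the other short genes were nearer to a start. For gene peaks the shares were 75% and 72.5%, against 65.9% and 63.0% for the other short genes.

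**Figure D4:**
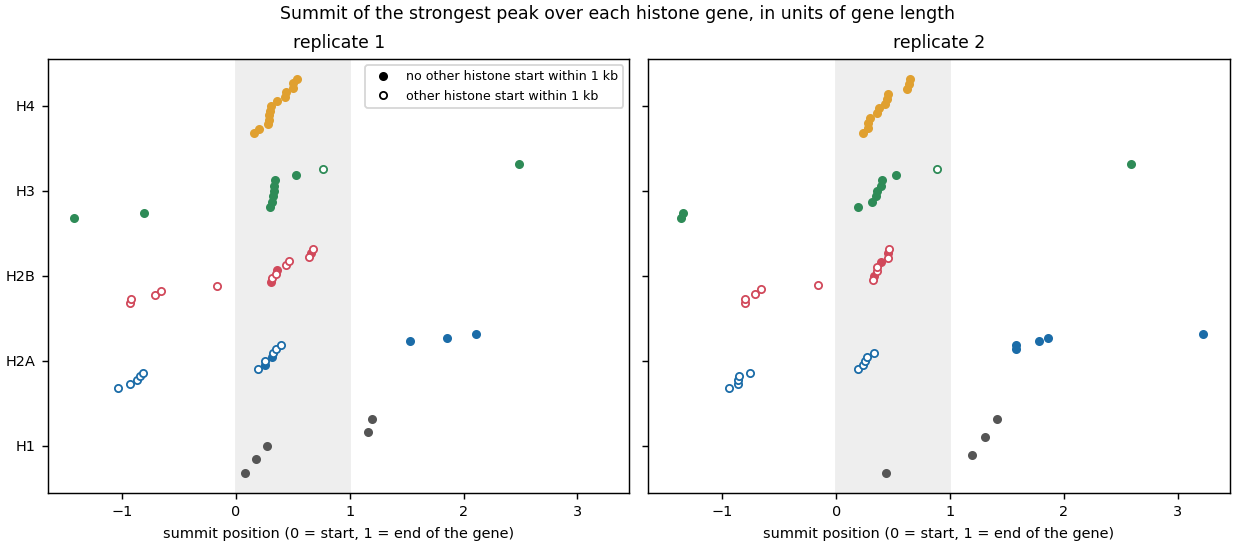
The summit of the strongest gene peak is placed in units of gene length (horizontal axis, 0 at the start, 1 at the end, gene body shaded) for each histone class and replicate, with open symbols for genes that have another histone start within 1 kb. All 13 H4 summits in replicate 1 and all 12 in replicate 2 lie inside the gene, and the open symbols left of 0 are pair members whose summit is in the partner gene.

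This position varied by class, which was not tested. All 13 H4 gene peaks in replicate 1 and all 12 in replicate 2 had the strongest summit inside the H4 gene. For H3 this was 8 of 11 in each replicate. The other H3 genes, H3C1, H3C14 and H3C15, each share their peak with a neighbour. For H2A it was 7 of 15 in replicate 1 and 5 of 15 in replicate 2, and for H2B 9 of 14 and 8 of 13. No H4 gene has another histone start within 1 kb, whereas many H2A and H2B genes do, so class and peak sharing are not separated here. For H1, 3 of 5 in replicate 1 and 1 of 4 in replicate 2 had the summit inside, and the others lay past the 3′ end. H1-4 had its summit at 940 bp after the start in both replicates, past its end at 787 bp, and H1-3, of 776 bp, at 896 and 1094 bp. The H1-4 summit is 154 bp from the H1-4 end and 147 bp from an annotated start of another gene. In H1-2 it was at 128 bp in replicate 1 and 957 bp in replicate 2.

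In units of gene length, H3C1, H2AC21, H2AC18 and H2AC19 had the summits farthest to the 3′ side in both replicates, and each shares its peak with a neighbour. H3C1 had it at 1262 and 1312 bp, which is inside H4C1 at 64 and 114 bp. H2AC21 had it at 921 and 922 bp, inside H2AC20. H2AC18 had it at 1123 and 840 bp, and H2AC19 at 813 and 841 bp, between each gene and its neighbour H3C14 or H3C15. H2AC18 and H2AC19 are among the genes with only repeated words.

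The stem-loop was inside the strongest gene peak at 48 of 56 genes with both features in replicate 1 and 47 of 53 in replicate 2, and at 43 in both. The summit was a median of 318.5 bp and 317.5 bp away from it. It lay within 200 bp of the stem-loop at 9 and 6 genes, and at 3 in both replicates. Most gene peaks thus spanned the stem-loop, with the summit elsewhere in the peak. The peaks that touched a histone gene had a median length of 1263 and 1315 bp, against 487 bp for the genes. The canonical end was inside the gene peak at 48 of 58 genes in replicate 1 and 48 of 55 in replicate 2. Coverage of the stem-loop therefore cannot be told apart from coverage of the gene end.

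Genes of histone transcription and 3′ processing were taken as a list of 24. A window peak was present in both replicates at 20 of them, against 61.9% of all protein-coding genes. Their median strongest fold was 5.58 and 6.15, near the 5.78 and 5.58 of all protein-coding genes with a peak. Transcription factors and cofactors included POU2F1 at a fold of 20.3 and 15.2, and NPAT, the histone coactivator phosphorylated by CDK2, at 3.38 and 3.03. The 2 NPAT values are from different places, with the summit at -244 bp from the start in replicate 1 and at 22906 bp in replicate 2. SLBP, which encodes the stem-loop binding protein, had 19.0 and 10.7. LSM10, of the U7 snRNP, had 4.81 and 6.78, and LSM11, its partner, had a peak only in replicate 2 at 4.11. CPSF3, the endonuclease of histone and poly(A) processing, had 6.37 and 8.35.

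Replacement histone genes are expressed outside S phase and mostly give polyadenylated mRNA. Of 12, 9 had a window peak in both replicates, against 61.9% of all protein-coding genes. The median percentile of the strongest peak was 95.8 and 91.3, against 83.9 and 79.4 for all protein-coding genes. H3-3B had a fold of 20.97 and 16.7, H2AX of 16.4 and 12.04 and H2AZ2 of 15.2 and 12.2. H3-3A had a peak in replicate 1 only, at 11.4, and H2AJ and H3-5 had none.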

How the data were processed

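NUDT21 CUT&Tag was performed on 2 replicates of J.gamma1 cells. Per the methods and the submitters' processing notes, the authors trimmed reads with fastp, aligned them to hg38 with Bowtie2 2.2.5, removed duplicates with Picard and called peaks in each replicate with MACS3 3.0.1. The methods describe no control library. For each peak, the deposited lists give the fold enrichment at the summit (a ratio), the −log10 p-value, the −log10 q-value, a score derived from q (not used) and the summit position. These values were compared only within a list. Of 97162 and 68532 deposited peaks, those on chromosomes 1 to 22, X and Y were kept.

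Fragments at the summit and background were solved from fold and p, with a solution for 99.98% and 100.0% of peaks. The pileup of replicate 1 was scaled by 0.921. MACS scales in this way when a control of another depth is supplied, so the background in the fold may come from a control library, which was not tested. This step was tested on simulated data. Total depth is unknown.

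GENCODE release 44 genes and hg38 sequence were used with Python 3.11.15, numpy 2.4.6, pandas 2.3.3 and pysam 0.24.0. Peaks overlapped by at least 1 bp. The members and lists were chosen with earlier results of these data known. Values were given for the leading 2 genes per class, genes outside chromosome 6, genes lacking a peak, the 5 with the most 3′ summits and the most shared peaks, and other members and the pathway examples were named after their values were seen. With 1 group no test was made. Alternatives were stricter peak filters, other windows, starts, ends and overlaps, unique genes and single replicates.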

Additional observations from a re-analysis of the deposited data

How the results depend on the processing

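Of 38 alternative values, 30 stayed within 1.5 times the count or 1 SD of the value given above, and 8 moved. A further 6, which leave 1 replicate out of a mean of 2, lie within 1 SD by construction and say nothing of stability. With the 10000 peaks of lowest p in each list, 74.0% of window peaks had the summit nearer to a start and 70.1% were shared between windows, in place of 61.7% and 60.7%. Without the 13 genes of mostly repeated words, the share nearer to a start was 68.1% and the median percentile of the strongest fold was 99.6. With a 1000 bp window the median percentile was 99.6 and the shared peaks fell to 38.0%. Counting a gene only where a summit lay inside it gave 34 genes in both replicates in place of 55. Asking for a summit within 200 bp of the stem-loop gave 3 genes in place of 43. The smaller window and the narrower overlap make fewer peaks eligible by construction, and for the other alternatives the cause was not tested. With 1 replicate left out, genes with a window peak were 59 to 60, genes with a gene peak 55 to 58, the share nearer to a start 58.1% to 65.3%, the median percentile 99.7 to 99.8, the shared peaks 58.1% to 63.3% and the covered stem-loops 47 to 48. The annotated gene span, an alternative chosen after seeing the data, gave 56 genes. No paired analysis was possible because the design holds a single group. Replicate 2 had fewer fragments per summit, and whether depth bears on the genes without a peak was not tested. The 9 genes without a window peak lacked one in both replicates.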

Other observations

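Histone pseudogenes on chromosomes 1 and 6 were left out of the gene set by its rule. Of 14 such pseudogenes, 8 had a peak over them in both replicates, and in 6 of these the peak also lay in the window of a histone gene. No share over other pseudogenes was computed, so the count does not show enrichment. The summit lay inside the pseudogene at 0 of the 8 in either replicate. H2BC27P, which lies outside the histone windows on chromosome 1, was touched by a peak with a fold of 16.8 in replicate 1 and 13.9 in replicate 2, and H3C9P on chromosome 6 by a peak with 7.13 and 5.80. The protein-coding histone genes H3-4, H3-7 and H2BC12L, whose names do not match the rule, had no peak over the gene in either replicate.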
